A study of Mus musculus with 48 samples.

Results

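The genes described here are those by which pigment cells of the skin are usually recognised: Tyr, Tyrp1, Dct, Pmel, Mlana, Mitf, Sox10, Kit, Slc45a2 and Oca2. Their probesets were found by gene symbol, older synonym or gene identifier in the annotation of the array. Of the 10 genes, 8 had a probeset (17 probesets in all, of 24478 that name 1 gene and cover 19147 genes). Sox10 and Slc45a2 were matched by no probeset and are not analysed here. Dct had 5 probesets, Tyrp1 3, and Tyr, Mitf and Kit 2 each, while Pmel, Mlana and Oca2 had 1. Each gene was represented by the probeset with the highest mean. The filter on low values, a mean log2 intensity of at least 2.93, was passed by 14 of the 17 probesets and 7 of the 8 genes.

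RNA was measured in skin of 48 mice, with 1 custom Affymetrix array per mouse, after 14 days of oral treatment with inhibitors of DGAT1, an enzyme of the last step of triglyceride synthesis. Study 1 held Cpd2, Cpd1 and vehicle (8 mice each), Study 2 held Cpd2, Cpd6 and vehicle (4 each), and Study 4 held Cpd6, Cpd18 and vehicle (4 each). All groups were C57BL/6 animals aged 8 weeks by their labels, and by the study's methods they were male, diet-induced obese and on a high-fat diet, with methylcellulose as the vehicle. The labels call the tissue dorsal skin of every mouse, whereas the study's methods allow for biopsies of the back, the belly or both. The labels give no dose, and in the study's histology Cpd1 was dosed lower than Cpd2. Values are RMA intensities on the log2 scale, so that a difference of 1 is a doubling, and a level cannot be set against that of another probeset. A single array was run per mouse, and nothing says whether the mice of a group shared a cage.

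The arrays resembled each other closely, with medians of 26.4 to 30.8 in linear intensity. The label of skin fitted its markers: the epidermal keratins Krt1 and Krt10 had lowest values of 11.20 and 12.14 over the 48 mice, and the collagen gene Col1a1 had a lowest value of 12.88. In Study 1, the Cpd2 mice 3, 4 and 7 were low in a list of 15 skeletal muscle genes (mean log2 intensity 5.70, 7.71 and 6.72, against 8.65 to 12.28 in the other mice given Cpd2 or Cpd1). A list of 7 genes whose level in skin depends on body position (Hox genes and Tbx15) averaged 6.01 to 7.44 in Cpd2 mice and 7.71 to 7.98 in Cpd1 mice of Study 1, against 6.40 to 7.22 in vehicle mice, so that all Cpd1 mice were above all others of that study. In Studies 2 and 4 the group means of this list lay between 7.53 and 7.85.

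Melanin is made from tyrosine inside melanosomes, organelles related to lysosomes. Tyr encodes tyrosinase, the rate-limiting enzyme, Tyrp1 and Dct encode related enzymes of the later steps, and Pmel forms the fibrils on which melanin is laid down. Mlana encodes a small melanosomal membrane protein, and Oca2 a membrane protein that governs the pH of the melanosome. Mitf, a transcription factor, and Kit, a receptor for stem cell factor, act upstream, and both are also used by mast cells. In mouse trunk skin the melanocytes sit mainly in the hair follicles, where they make pigment while the hair grows and stop when growth ends.

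Tyr, Tyrp1 and Dct are textbook targets of the MITF protein, and they moved together here, so the 250 bases before their transcription start are shown. The longest run that the windows of the 3 genes share is 10 bases, GTCATGTGCT, which holds the element known as the M-box and is in capitals. The sequences run 5′ to 3′ along the strand of the gene and come from RefSeq (GRCm38.p6).
Tyr (chr7:87493513-87493762, minus strand): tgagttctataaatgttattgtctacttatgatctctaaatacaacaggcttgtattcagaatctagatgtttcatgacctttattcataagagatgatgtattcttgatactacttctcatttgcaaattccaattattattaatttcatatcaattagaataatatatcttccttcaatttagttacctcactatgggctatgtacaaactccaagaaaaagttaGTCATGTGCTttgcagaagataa
Tyrp1 (chr4:80833963-80834212, plus strand): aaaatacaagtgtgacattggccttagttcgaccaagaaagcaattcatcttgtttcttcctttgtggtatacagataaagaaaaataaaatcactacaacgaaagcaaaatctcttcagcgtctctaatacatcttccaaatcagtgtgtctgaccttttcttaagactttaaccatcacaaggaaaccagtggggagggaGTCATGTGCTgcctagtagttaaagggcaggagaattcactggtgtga
Dct (chr14:118052247-118052496, minus strand): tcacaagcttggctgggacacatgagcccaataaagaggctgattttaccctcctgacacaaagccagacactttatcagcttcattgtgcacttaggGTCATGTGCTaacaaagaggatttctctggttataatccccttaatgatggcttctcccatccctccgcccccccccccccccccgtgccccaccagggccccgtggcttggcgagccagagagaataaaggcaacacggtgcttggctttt
Counted from the annotated start, the run begins at position -23 in Tyr, -48 in Tyrp1 and -152 in Dct, on the strand of the gene. On either strand it was present in 61 of 32817 promoter windows of the table, counting 250 bases before to 50 after the start, or 0.186%. Its core, CATGTG, is far commoner, at 14.2% of all windows on either strand, and was also present in the window of Oca2. Windows were listed for 6 of the 10 genes, and those of Mitf and Kit held neither run. These matches describe the letters only.

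The melanosome genes were far more variable between mice than Mitf and Kit were. Over the 48 mice Tyrp1 ran from 3.47 to 10.82, a range of 7.35, and Tyr from 2.53 to 8.65, a range of 6.12. Dct covered a range of 4.96, Pmel 4.49, Oca2 4.51 and Mlana 4.01. Mitf covered 1.09 (10.08 to 11.17), and Kit ran from 5.61 to 7.11. The second, dimmer Mitf probeset was more variable than the first and ran from 5.44 to 7.28.

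**Figure D1:**
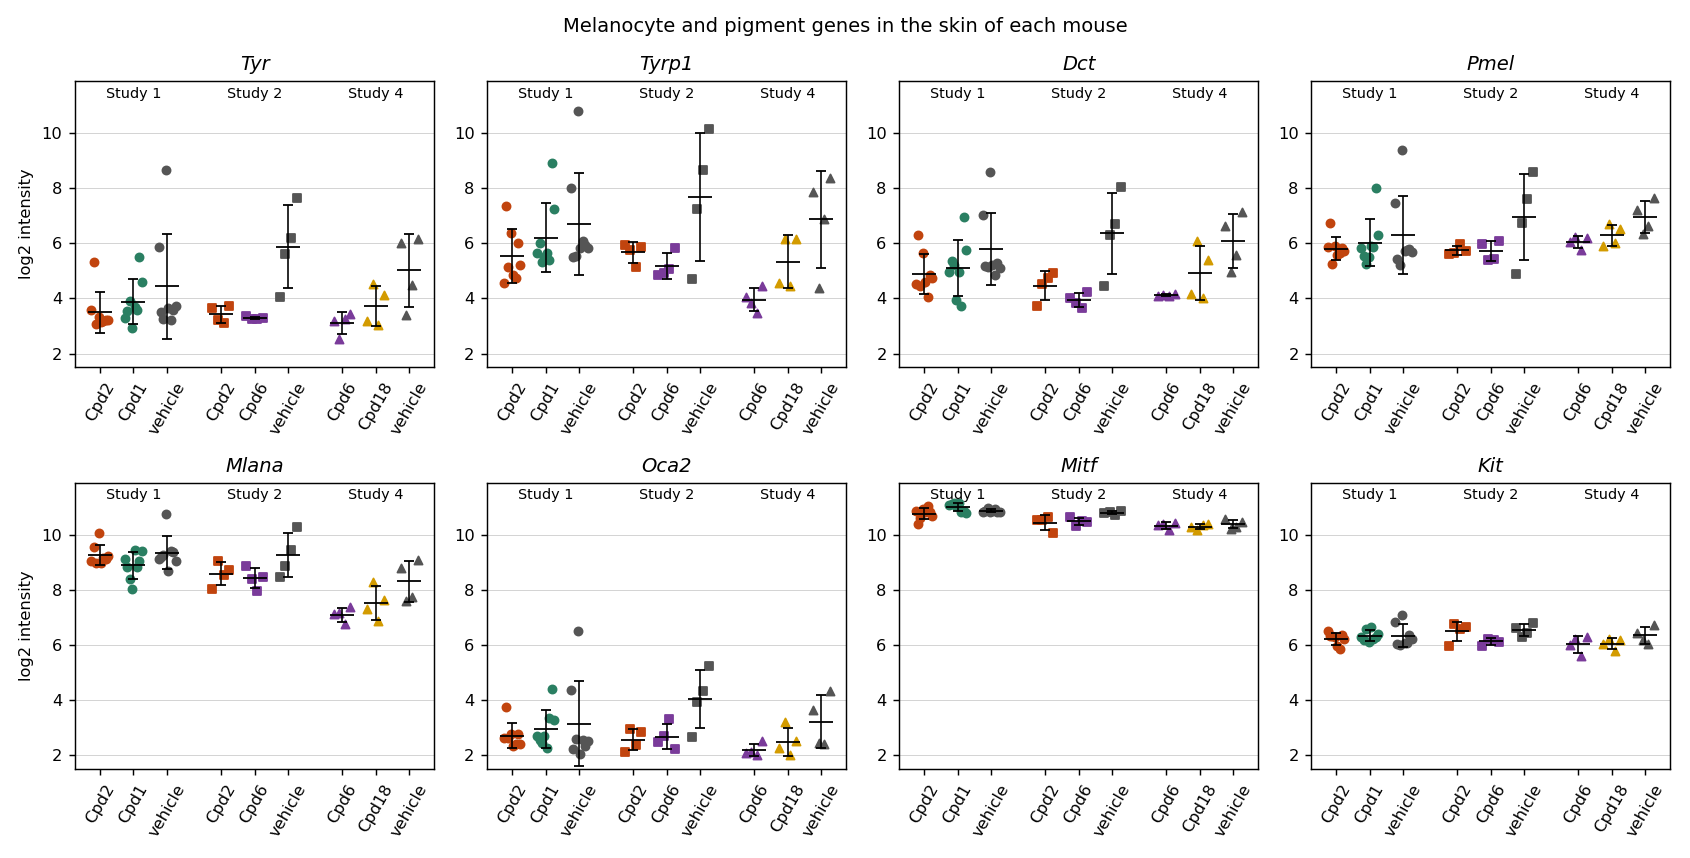
Log2 intensity of the 8 measured genes in every mouse, by study and treatment. Each point is 1 mouse, the dash is the group mean and the bar is the SD. For Tyr the Cpd6 mice of Study 4 sit between 2.53 and 3.42, and the vehicle mice between 3.39 and 6.17, while the Mitf points form a narrow band throughout.

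In Study 4, skin of Cpd6-treated mice held less RNA of 5 melanosome genes than skin of vehicle-treated mice. Tyrp1 was 7.53-fold lower, Dct 3.90-fold, Tyr 3.77-fold, Mlana 2.32-fold and Pmel 1.86-fold, and Mitf and Kit did not pass the test. All 5 genes called, of 7 tested, were lower, as were 9 of 14 probesets. Across the array 10.7% of the 28789 tested probesets were called in this comparison (1314 higher, 1776 lower). A probeset was called at a Benjamini-Hochberg adjusted p under 0.05 in limma. The median difference of the 7 genes was -1.21 on the log2 scale, beside 0.01 for all tested probesets. In whole skin, fewer melanocytes and less RNA per melanocyte cannot be told apart.

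Tyrosinase RNA was near the bottom of its range in all Cpd6 mice of Study 4. Tyr read 3.19, 2.53, 3.27 and 3.42 in Cpd6 mice 1 to 4, against 6.03, 3.39, 4.48 and 6.17 in vehicle mice 1 to 4. The groups overlapped only through vehicle mouse 2, which read within the range of the Cpd6 mice. The difference was -1.92 (SE 0.51, adjusted p = 0.0286, limma). The second Tyr probeset, too dim for the filter (mean 2.22), gave -0.41 (SE 0.15, adjusted p = 0.113) in the fit without it. Tyrp1, whose product stabilises tyrosinase and acts after it, showed the largest difference of the members. Tyrp1 read 4.07, 3.83, 3.47 and 4.47 in Cpd6 mice, against 7.86, 4.38, 6.88 and 8.37 in vehicle mice. Vehicle mouse 2 was again the only one among the Cpd6 values, and the difference was -2.91 (SE 0.66, adjusted p = 0.0154). Its second probeset was also called lower (-1.14, SE 0.34, adjusted p = 0.047), and the third, which was also below the filter, gave -0.84 (SE 0.27, adjusted p = 0.0768) in the fit without it.

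Dct, the dopachrome tautomerase, separated the groups fully by its brightest probeset. Dct read 4.09, 4.14, 4.09 and 4.16 in Cpd6 mice of Study 4, an SD of 0.04, against 6.65, 4.97, 5.57 and 7.14 in vehicle mice. The difference was -1.96 (SE 0.46, adjusted p = 0.017, limma). Of its 5 probesets 4 were called, with differences of -1.96 to -1.71, and the other gave -0.19 (SE 0.24, adjusted p = 0.647). For that other probeset the groups overlapped (4.51 to 5.13 with Cpd6, 4.53 to 5.44 with vehicle). They also overlapped for the dimmest, which was called (2.04 to 3.59 with Cpd6, 3.55 to 5.76 with vehicle). Pmel, the fibril protein, had values of 6.05, 6.24, 5.77 and 6.18 in Cpd6 mice, against 7.21, 6.35, 6.62 and 7.65 in vehicle mice. For Pmel the groups did not overlap (difference -0.89, SE 0.25, adjusted p = 0.0351). Mlana had values of 7.14, 7.15, 6.76 and 7.38 in Cpd6 mice, against 8.82, 7.61, 7.74 and 9.10 in vehicle mice. All 4 vehicle mice were above all 4 Cpd6 mice (difference -1.21, SE 0.33, adjusted p = 0.0307). How many of all probesets separate these groups was not counted. The Tyr call was lost with 6 of the 8 mice left out in turn, and so were those of Pmel and Mlana, with adjusted p up to 0.103, whereas Tyrp1 stayed called in all 8 such fits (adjusted p up to 0.0483) and Dct in 7 of 8. All 5 calls were lost with the per-probeset test that the study's methods name, which shares no spread between probesets, adjusted over all probesets (Tyrp1 at 0.116, Dct at 0.0761 and Tyr at 0.153), and in 1 fit over all 48 arrays only that of Mlana was kept (Tyrp1 at 0.0617, Dct at 0.0836 and Tyr at 0.154).

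The upstream genes were not called in the same mice. Mitf read 10.35, 10.39, 10.19 and 10.45 in Cpd6 mice of Study 4, against 10.57, 10.23, 10.30 and 10.48 in vehicle mice, with a 95% interval of the difference from -0.23 to 0.13. Its second probeset had the opposite sign, at 0.27 (SE 0.14, adjusted p = 0.223, limma). Kit read 6.01, 6.21, 5.61 and 6.28 in Cpd6 mice, against 6.44, 6.19, 6.04 and 6.73 in vehicle mice (difference -0.32, SE 0.17, adjusted p = 0.248, limma). For both genes the groups overlapped. Oca2 had a mean of 2.90, just under the limit for testing of 2.93, and is given from the fit without that limit. Oca2 read 2.09, 2.12, 2.02 and 2.52 in Cpd6 mice, against 3.66, 2.43, 2.41 and 4.35 in vehicle mice (difference -1.03, SE 0.35, adjusted p = 0.0924).

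Cpd18, given in the same study, left the melanosome genes between the Cpd6 and vehicle groups, and none was called against vehicle. Only 0.00347% of all probesets, 1 in number, were called between Cpd18 and vehicle. Tyrp1 read 4.57, 6.17, 4.46 and 6.15 in Cpd18 mice 1 to 4, against the 4.38 to 8.37 of vehicle mice (difference -1.54, SE 0.66, adjusted p = 0.594, limma). Tyr read 3.17, 4.53, 3.04 and 4.11 in Cpd18 mice, against 3.39 to 6.17 in vehicle mice (difference -1.31, SE 0.51, adjusted p = 0.537). Cpd18 mice 2 and 4 were high for both enzymes and mice 1 and 3 low. The 7 tested genes all had a negative difference, with 5 at an unadjusted p under 0.05, as were 2291 of all 28789 tested probesets. Set directly against Cpd18, Cpd6 gave no member call, where 0.49% of all probesets were called. By the brightest probesets no member had an unadjusted p under 0.05, beside 3588 of all 28789 tested probesets that did. The second Dct probeset did, at -0.81 (SE 0.34, unadjusted p = 0.0302, adjusted p = 0.346, limma). The difference for Tyrp1, Cpd6 minus Cpd18, was -1.38 with a 95% interval of -2.79 to 0.03, and for Tyr it was -0.61 (-1.69 to 0.47). For Dct it was -0.80 (-1.78 to 0.17). The intervals hold both no difference and differences of more than a doubling.

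**Figure D2:**
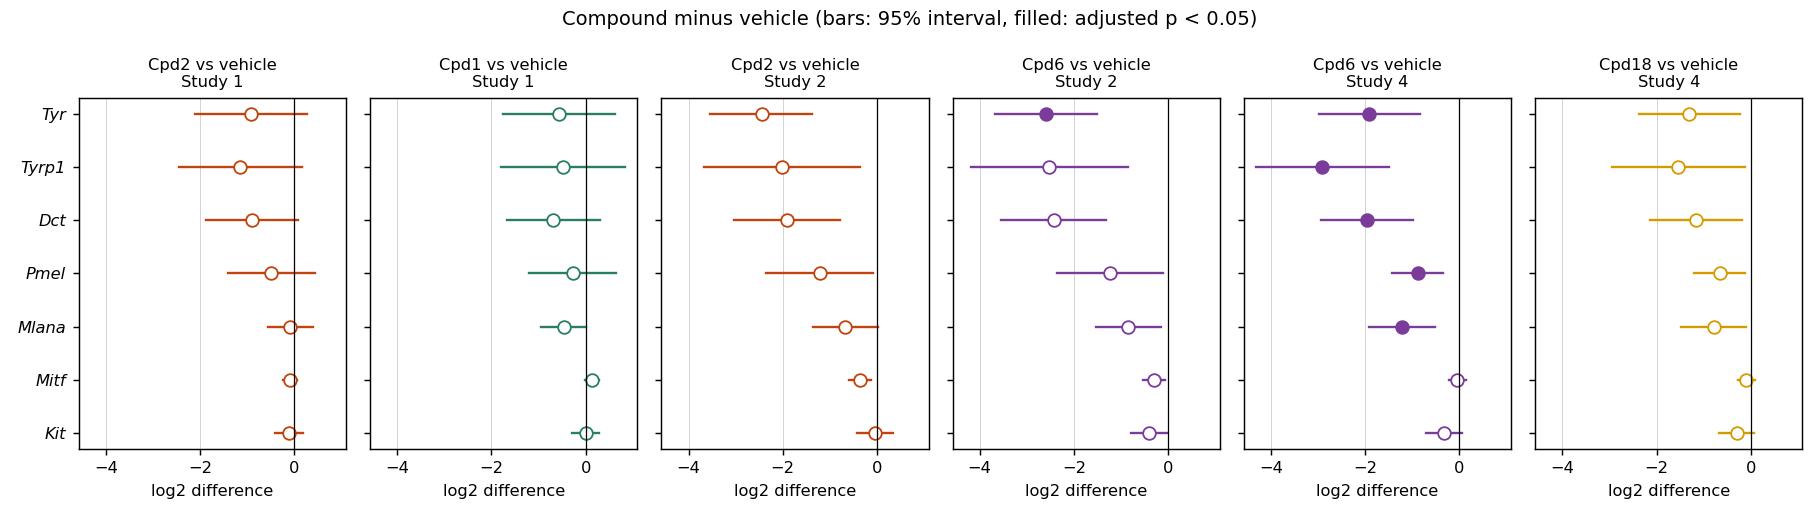
Log2 difference of each compound from the vehicle of its own study for the 7 tested genes. Points are limma estimates, bars are 95% intervals and filled points passed an adjusted p under 0.05. Tyr is filled for Cpd6 in Study 2, and 5 genes are filled for Cpd6 in Study 4, with Tyrp1 at -2.91.

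In Study 2, Tyr was the only member called for Cpd6, 6.05-fold lower than in vehicle mice, and no member was called for Cpd2. Across the array 0.379% of probesets were called for Cpd6 and 0.129% for Cpd2. At an unadjusted p under 0.05 stood 7 of the 7 genes for Cpd6 and 5 for Cpd2, all with a negative difference. Of all 28789 tested probesets, 3384 and 2124 stood there in these comparisons. Tyr read 3.36, 3.26, 3.26 and 3.28 in Cpd6 mice 1 to 4 and 3.67, 3.23, 3.11 and 3.71 in Cpd2 mice, against 4.05, 5.62, 6.21 and 7.66 in vehicle mice. By this probeset neither compound group overlapped the vehicle group, and how many of all probesets separate so was not counted. The difference was -2.60 (SE 0.51, adjusted p = 0.0385, limma) for Cpd6 and -2.45 (SE 0.51, adjusted p = 0.112) for Cpd2. The second Tyr probeset gave -1.06 (SE 0.46, adjusted p = 0.439) for Cpd6 and -0.99 (SE 0.46, adjusted p = 0.694) for Cpd2 in the fit without the filter. There both compound groups (1.67 to 2.35 with Cpd6, 1.66 to 2.38 with Cpd2) overlapped the vehicle group (1.85 to 4.90). The 2 comparisons share the same 4 vehicle mice. The Tyr call for Cpd6 was lost with any Cpd6 mouse, or vehicle mouse 2 or 3, left out (adjusted p up to 0.161), and also with the test of the methods (0.357) and in 1 fit over all arrays (0.0796).

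Tyrp1 and Dct had differences of like size in Study 2 without passing the test. Tyrp1 read 4.85, 4.94, 5.08 and 5.85 in Cpd6 mice and 5.95, 5.76, 5.13 and 5.88 in Cpd2 mice, against 4.71, 7.25, 8.68 and 10.16 in vehicle mice. Vehicle mouse 1 was the lowest of all 12 and the other 3 vehicle mice were above every treated mouse. The difference was -2.52 (SE 0.78, adjusted p = 0.183) for Cpd6 and -2.02 (SE 0.78, adjusted p = 0.535) for Cpd2, by limma. Dct read 4.03, 3.85, 3.64 and 4.24 in Cpd6 mice and 3.71, 4.51, 4.73 and 4.92 in Cpd2 mice, against 4.47, 6.29, 6.70 and 8.04 in vehicle mice. The Dct groups overlapped between Cpd2 and vehicle but not between Cpd6 and vehicle (difference -2.43, SE 0.53, adjusted p = 0.0678 for Cpd6). With vehicle mouse 1 left out, Tyr, Tyrp1, Dct and Pmel were all called lower, 4 genes for each compound. In these fits 598 of 28789 probesets were called for Cpd6 and 257 for Cpd2, against 109 and 37 with that mouse kept. It was the lowest vehicle mouse for each of these 4 genes, so leaving it out widens their differences by itself.

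Pmel and Mlana followed the same mice in Study 2. Pmel read 5.97, 5.39, 5.43 and 6.09 in Cpd6 mice and 5.62, 5.64, 5.99 and 5.73 in Cpd2 mice, against 4.90, 6.76, 7.60 and 8.58 in vehicle mice. Here too vehicle mouse 1 was the lowest of the study. Mlana ran from 7.97 to 8.86 in Cpd6 mice and from 8.04 to 9.06 in Cpd2 mice, against 8.46 to 10.30 in vehicle mice. Oca2 ran from 2.23 to 3.30 with Cpd6 and from 2.12 to 2.96 with Cpd2, against 2.67 to 5.24 with vehicle. By its brightest probeset Mitf was below all vehicle mice (10.74 to 10.86) in all Cpd6 mice (10.34 to 10.66) and all Cpd2 mice (10.08 to 10.66). The differences of -0.31 (adjusted p = 0.266) and -0.35 (adjusted p = 0.416) did not pass in limma. For its second probeset Cpd2 (5.87 to 6.52) overlapped vehicle (6.45 to 6.69), and Cpd6 (6.00 to 6.33) did not. Its differences were -0.38 (adjusted p = 0.372) for Cpd6 and -0.24 (adjusted p = 0.822) for Cpd2. How many of all probesets separate in this way was not counted. Kit gave -0.41 for Cpd6 (SE 0.18, adjusted p = 0.382) and -0.04 for Cpd2 (SE 0.18, adjusted p = 0.98).

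Between Cpd2 and Cpd6 no member was called or had an unadjusted p under 0.05, and 0% of all probesets were (2370 of 28789 had an unadjusted p under 0.05). The difference, Cpd2 minus Cpd6, was 0.14 for Tyr (95% interval -0.94 to 1.23), 0.50 for Tyrp1 (-1.16 to 2.16) and 0.52 for Dct (-0.60 to 1.65). Cpd6 was also compared between its studies in 1 fit over all arrays, where 0% of probesets and no member were called. The effect of Cpd6 in Study 4 minus that in Study 2 was 0.68 (SE 1.05) for Tyr, -0.39 (SE 1.28) for Tyrp1 and 0.47 (SE 0.91) for Dct.

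In Study 1, with 8 mice a group, no member was called against vehicle for Cpd2 or Cpd1. Of all probesets, 13.1% and 0.327% were called in these comparisons. By the brightest probesets, 0 of the 7 tested genes had an unadjusted p under 0.05 in either, beside 7542 and 3794 of all 28789 tested probesets. The second Dct probeset was under that limit for Cpd2, at -1.01 (SE 0.47, unadjusted p = 0.0394, adjusted p = 0.165, limma). Tyrp1 ran from 4.58 through a median of 5.19 to 7.36 in Cpd2 mice and from 5.33 through 5.64 to 8.92 in Cpd1 mice, against 5.49 through 5.88 to 10.82 in vehicle mice. The vehicle group held the highest mouse of the study, replicate 4, and a further high one, replicate 1 at 8.00, with the other 6 between 5.49 and 6.08. In Cpd1 mice the high values were those of replicates 7 (8.92) and 8 (7.26), and in Cpd2 mice that of replicate 2 (7.36). The difference from vehicle was -1.15 for Cpd2 (SE 0.64, adjusted p = 0.265) and -0.48 for Cpd1 (SE 0.64, adjusted p = 0.796), by limma.

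The same animals stood out for the other enzymes. Tyr ran from 3.06 through 3.20 to 5.32 in Cpd2 mice and from 2.91 through 3.64 to 5.49 in Cpd1 mice, against 3.20 through 3.63 to 8.65 in vehicle mice. Its highest values again belonged to replicate 2 of the Cpd2 group, replicate 7 of the Cpd1 group and replicate 4 of the vehicle group. Dct ran from 4.05 through 4.69 to 6.32 in Cpd2 mice and from 3.73 through 5.10 to 6.95 in Cpd1 mice, against 4.85 through 5.19 to 8.60 in vehicle mice. Pmel had medians of 5.77 with Cpd2, 5.85 with Cpd1 and 5.74 with vehicle, and its highest mice, at 6.75, 8.01 and 9.39, were those same replicates. Mlana was spread more narrowly, with medians of 9.16 with Cpd2 and 8.96 with Cpd1, against 9.24 with vehicle. Oca2 had highest values of 3.74 with Cpd2 and 4.4 with Cpd1, against 6.51 with vehicle, in the same 3 replicates. Kit had medians of 6.31 with Cpd2 and 6.30 with Cpd1, against 6.16 with vehicle, and vehicle replicate 4 was its highest mouse at 7.11. The effect of Cpd2 did not differ by the test between its studies for any member, where 0.726% of all probesets were called: for Tyr, Study 1 minus Study 2 was 1.52 (SE 0.91, adjusted p = 0.438).

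Mitf was the 1 member called between Cpd2 and Cpd1, where 17.2% of all probesets were called. Mitf ran from 10.41 through 10.84 to 11.04 in Cpd2 mice, against 10.80 through 11.07 to 11.17 in Cpd1 mice. The groups overlapped, and the difference was -0.23 (SE 0.07, adjusted p = 0.0316, limma), 1.18-fold lower with Cpd2. Its second probeset gave -0.27 (SE 0.16, adjusted p = 0.255), and without the 3 Cpd2 mice low in muscle genes the call was lost. These 2 groups also differed in the body position genes, of which 4 of 7 were called lower for Cpd2 than for Cpd1, and 4 of 7 were higher for Cpd1 than for vehicle, where 0.327% of all probesets were called. The list averaged 6.74 ± 0.42 in Cpd2 mice and 7.83 ± 0.10 in Cpd1 mice, against 6.85 ± 0.27 in vehicle mice (SD, n = 8 each). The part of biopsy site in the comparisons of pigment and hair genes in Study 1 was not tested. For the melanosome genes Cpd2 minus Cpd1 was -0.67 for Tyrp1 (95% interval -1.99 to 0.65), -0.37 for Tyr (-1.56 to 0.82) and 0.38 for Mlana (-0.09 to 0.85).

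**Figure D3:**
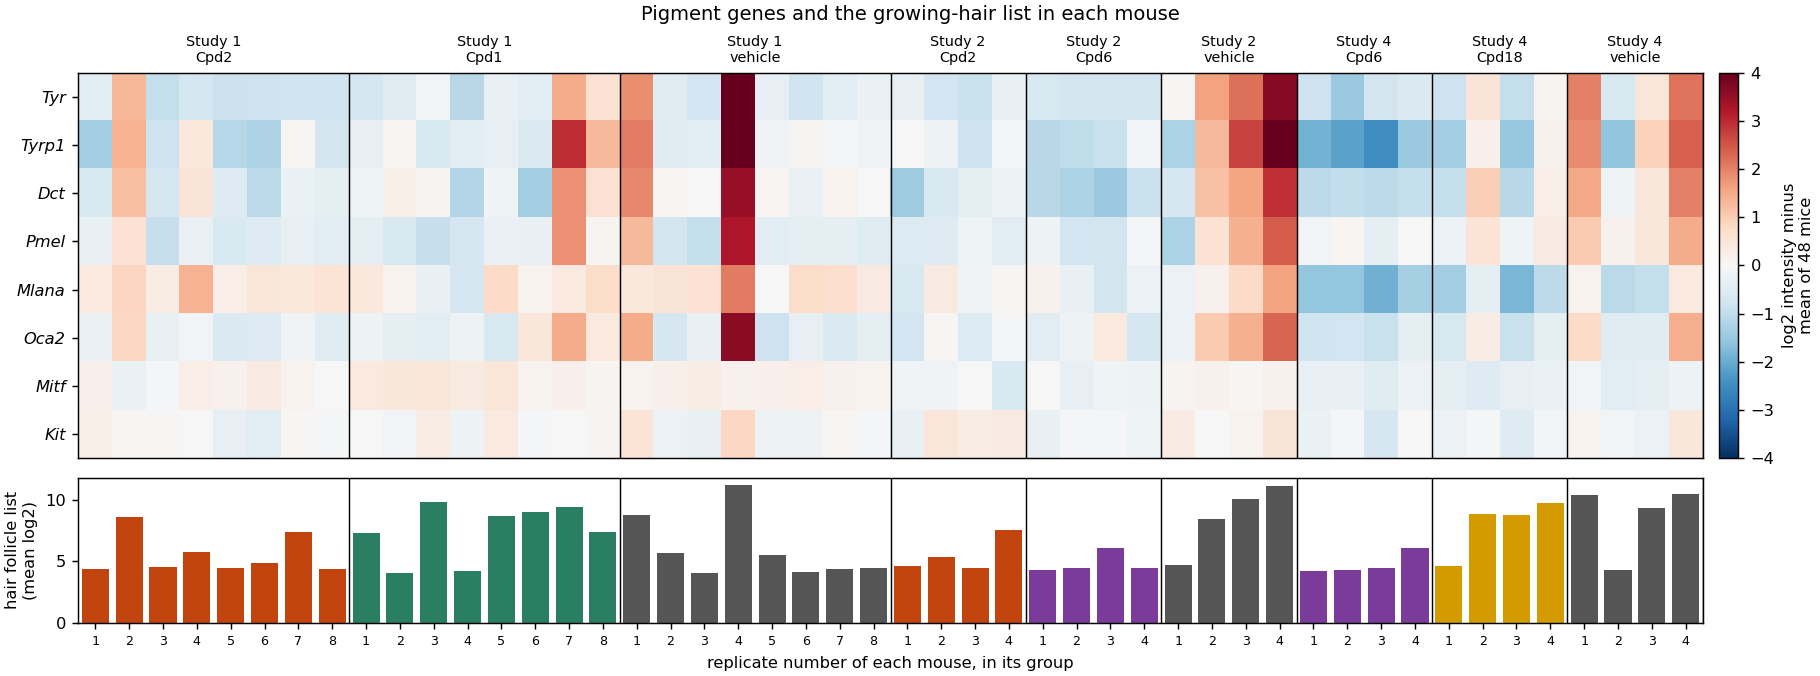
Each column is 1 mouse; colours give log2 intensity minus the mean of the gene over 48 mice, ending at 4 either way, and the bars give the mean log2 intensity of 17 genes of the growing hair follicle. Vehicle mouse 4 of Study 1 and of Study 2 are the darkest columns, with hair list levels of 11.22 and 11.13.

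The melanosome genes rose and fell together from mouse to mouse. Over 48 mice the log2 intensities of Tyr, Tyrp1, Dct, Pmel, Mlana and Oca2 were compared pairwise. Pearson correlations ran from 0.35 to 0.92 (15 pairs), and from 0.68 to 0.92 once the mean of each group had been subtracted. By rank the same pairs were looser, at 0.13 to 0.81 without that subtraction (Spearman). Pmel with Oca2, for example, had 0.86 by Pearson and 0.38 by Spearman. Mlana gave the lowest Pearson values, and its level differed by study. Its vehicle means were 9.36 ± 0.61 in Study 1 (SD, n = 8), 9.27 ± 0.80 in Study 2 and 8.32 ± 0.75 in Study 4 (n = 4 each). Mitf had Pearson correlations of -0.19 to 0.06 with the 6 genes within groups, and Kit of 0.50 to 0.63, each by its brightest probeset. These are descriptions over arrays of 3 studies, and no test is attached to them.

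A pigment score, the mean log2 intensity of Tyr, Tyrp1, Dct, Pmel and Mlana, was set beside lists of genes of other skin cells. A list for the growing hair follicle (17 of 23 genes measured, mostly hair keratins and matrix factors) moved with it. Their correlation was 0.73 over 48 mice (Spearman 0.58, and 0.68 without the 2 mice farthest from the median of the list). Within studies it was 0.67 in Study 1 (n = 24), 0.93 in Study 2 (n = 12) and 0.82 in Study 4 (n = 12). By rank these were 0.42, 0.61 and 0.76 (Spearman), and without the 2 farthest mice of each study 0.66, 0.76 and 0.83. After subtraction of group means the correlation was 0.77 (Spearman 0.70). In Study 4 the list averaged 4.20 to 6.05 in Cpd6 mice and 4.63 to 9.74 in Cpd18 mice, against 4.28 to 10.50 in vehicle mice. Vehicle mouse 2, the animal whose Tyr and Tyrp1 lay among the Cpd6 values, was also the lowest vehicle mouse in the hair list, at 4.28.

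In Study 2 the hair list averaged 4.26 to 6.05 in Cpd6 mice and 4.43 to 7.59 in Cpd2 mice, against 4.68 to 11.13 in vehicle mice, and vehicle mouse 1, low in Tyrp1, Dct and Pmel, was the one at 4.68. Of its 17 genes, 4 were called lower and none higher for Cpd6 in Study 4, where 10.7% of all probesets were called. All 17 had an unadjusted p under 0.05 there, as did 7984 of all 28789 tested probesets, and the median difference was -4.48. None was called for Cpd6 or Cpd2 in Study 2 (0.379% and 0.129% of all probesets), although all 17 had an unadjusted p under 0.05 in both, with medians of -4.29 and -3.41. Of all 28789 tested probesets, 3384 and 2124 were under that limit. For Cpd18 the median was -0.58, with none called and none at an unadjusted p under 0.05. The part of hair growth in the differences of the pigment genes was not tested.

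The 2 readouts did not always go together. In Study 1 the Cpd1 mice 3, 5 and 6 had hair list levels of 9.87, 8.72 and 9.02 with pigment scores of 5.62, 5.93 and 5.48, whereas vehicle mouse 1 had 8.81 with a pigment score of 7.50. In Study 4 the Cpd18 mouse 3 had a hair list level of 8.78 and a pigment score of 4.88, against 9.37 and 6.26 in vehicle mouse 3. Cpd1 had a positive median difference from vehicle in the hair list (1.57, with no gene of 17 called) beside a negative one in the 7 pigment genes (-0.46, with none called).

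**Figure D4:**
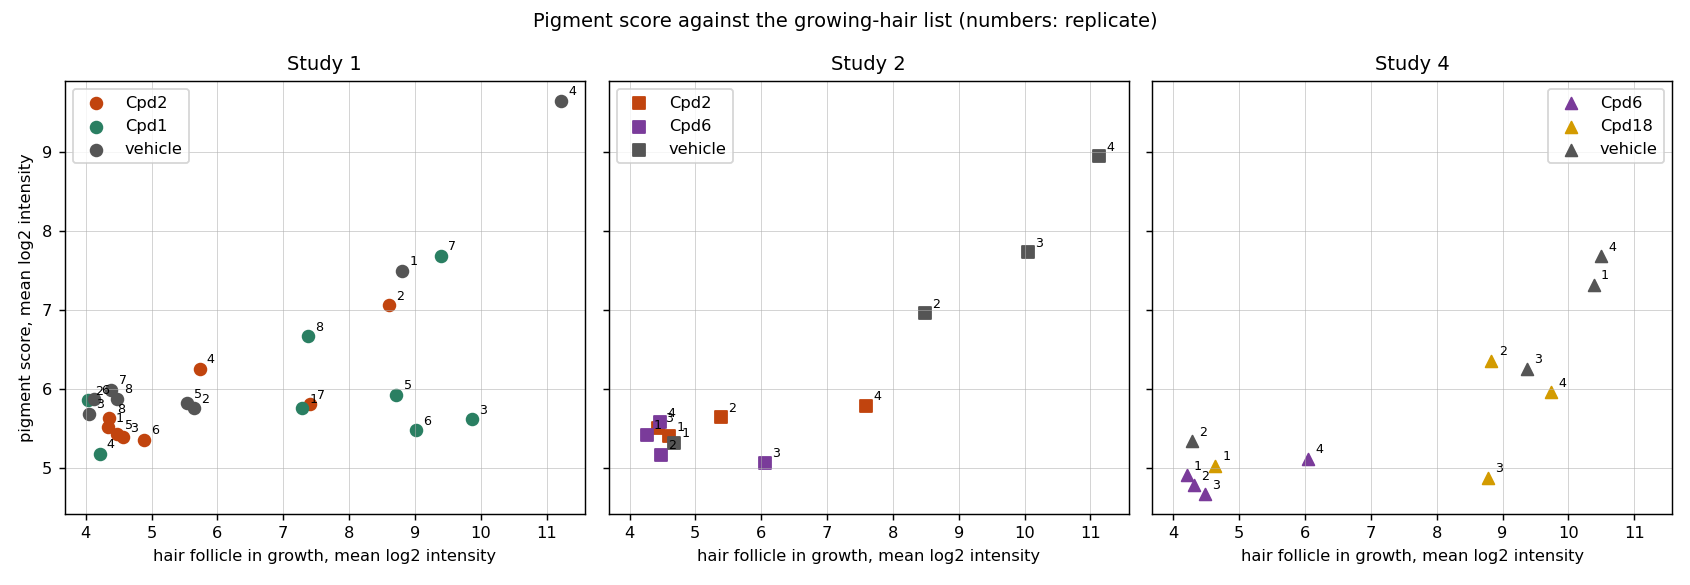
Pigment score (mean log2 intensity of 5 melanosome genes) against the mean log2 intensity of 17 growing-hair genes in each mouse, by study. Vehicle mice 2, 3 and 4 of Study 2 run up to 8.95 on the pigment axis, and Cpd1 mice 3, 5 and 6 of Study 1 and Cpd18 mouse 3 of Study 4 lie low at hair levels of 8.72 or more.

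Lists for other cell types had correlations with the pigment score that in part turned sign between studies, so a value over all 48 mice says little by itself. The adipocyte list (5 of 6 genes) had a correlation of -0.54 with it over 48 mice, which became -0.33 without the 2 mice farthest from the median of the list. It was negative in each of Studies 1, 2 and 4, at -0.65, -0.57 and -0.78. Without the 2 farthest mice of each study these became -0.17, 0.06 and -0.25. After subtraction of group means it was -0.68 (Spearman -0.63), and -0.52 without the 2 farthest mice. Mast cell genes, relevant because Kit and Mitf are used there, gave -0.12 over all mice (9 of 10 genes measured), made up of -0.60 in Study 1, -0.54 in Study 2 and 0.51 in Study 4. Schwann cell genes, which share the neural crest origin of melanocytes, gave -0.30 (6 of 10), and -0.65 to -0.26 within studies. Without the 2 farthest mice of each study they gave -0.0 in Study 1, 0.19 in Study 2 and -0.61 in Study 4. For interfollicular keratinocytes it was -0.32 (-0.77 in Study 2 and 0.03 in Study 4). For skeletal muscle it was -0.11 over all mice and -0.72 in Study 4, which became -0.30 without the 2 mice farthest from the median of the list. For the sebaceous gland it was 0.18 over all mice, 0.53 in Study 2 and 0.55 in Study 4, but -0.08 in Study 1 and -0.42 after subtraction of group means. For body position genes it was -0.15 over all mice, -0.54 in Study 2 and -0.58 in Study 4, and these last values became 0.11 and 0.02 without the 2 farthest mice. In Study 4 the mast cell list averaged 5.27 to 5.63 in Cpd6 mice, against 5.46 to 5.91 in vehicle mice, with 1 of 7 tested genes called higher and 2 lower. The groups overlapped, and for Cpd2 in Study 1, where 13.1% of all probesets were called, 2 of the 7 were called higher and none lower. The sebaceous gland list, the tissue the study was about, had 4 of 6 genes called lower for Cpd6 in Study 4 (10.7% of all probesets called), 2 in Study 2 (0.379%) and none for Cpd18 (0.00347%).

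Genes outside the list that tracked the pigment score most closely over the 48 mice were Gnmt, Syt4, Ptgds, Slc39a10, Msi1, Dlx4, Slc24a5, Prr5l, Hunk and Nt5dc2, with Pearson correlations from 0.93 down to 0.89. After subtraction of group means, 7 of these 10 were again among the top 10, joined by Lyg2, Gpr143 and Sptssb. Slc24a5, an ion exchanger of the melanosome, and Gpr143, a melanosomal receptor, belong to the pigment machinery, while Dlx4 is a homeobox gene and Ptgds makes prostaglandin D2.

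The wider pigment machinery was counted list by list for Cpd6 in Study 4, where 10.7% of all probesets were called, so that 1 call in a list of this length is near the share of the whole array. Of 9 tested genes for other melanosome enzymes, matrix and transport proteins, 1 was called lower and none higher: Tpcn2, an ion channel of the organelle (-0.42, SE 0.13, adjusted p = 0.047, limma). Slc24a5 gave -1.66 (SE 0.54, adjusted p = 0.0617) and Gpnmb, a relative of Pmel, -0.70 (SE 0.22, adjusted p = 0.0589). The 9 differences ran from -1.66 to 0.06 with a median of -0.42. The brightest of these genes, Atp7a, gave -0.04 (SE 0.08, adjusted p = 0.814, limma). Of 6 genes for melanosome movement and transfer, 1 was called, Sytl2, which tethers vesicles through RAB27 proteins (-1.5, SE 0.35, adjusted p = 0.0173). Rab27a, Mlph and Myo5a, the set that carries melanosomes along actin, gave -0.65, -0.10 and -0.10 and did not pass. Mreg was the only one of the 6 with a positive difference, at 0.18 (SE 0.14, adjusted p = 0.432, limma). None of 13 genes for the biogenesis of lysosome-related organelles was called.

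Signals to the melanocyte included 3 called genes of 8 for Cpd6 in Study 4, all lower, beside 10.7% of all probesets called (1776 of 28789 called lower). Ednrb, the endothelin receptor that melanoblasts need, gave -1.12 (SE 0.13, adjusted p = 0.000363), and Edn1, one of its ligands, -0.93 (SE 0.15, adjusted p = 0.003), both by limma. Corin, a protease of the dermal papilla that acts on coat colour in mice, gave -1.22 (SE 0.35, adjusted p = 0.0391). Kitl, the ligand of Kit, gave 0.02 (SE 0.14, adjusted p = 0.953) in that comparison, and was called lower for Cpd2 in Study 1 (-0.89, SE 0.20, adjusted p = 0.0035). Edn1 was also lower with Cpd6 than with Cpd18 (-1.02, SE 0.15, adjusted p = 0.00358). None of 8 lineage regulators was called for Cpd6 in Study 4: Pax3 gave 0.14 and Lef1 -0.81.

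For Cpd2 in Study 1, where 13.1% of all probesets were called, these lists had 2 called genes of 9, 1 of 8 and 1 of 8, and none of 6 and 13, together a lower share than over the array. Rab32 and Rab38, small GTPases that deliver tyrosinase and its relatives to melanosomes and that other cells use too, were called higher, by 0.44 (SE 0.10, adjusted p = 0.00403) and 0.39 (SE 0.09, adjusted p = 0.00317), limma. Erbb3, a receptor of neural crest cells that keratinocytes also express, was higher by 0.34 (SE 0.10, adjusted p = 0.0194). In the 5 pigment lists no gene was called for Cpd1, for Cpd18, or for Cpd2 or Cpd6 in Study 2.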

How the data were processed

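The authors hybridised skin RNA to a custom mouse Affymetrix array and deposited RMA values, which RMA corrects for background, normalizes between arrays and summarises per probeset. The deposited values are linear intensities (1.59 to 13570) for 38385 probesets, and were taken to log2 here. The RMA version and genome build are not given in the sources used here. Gene names came from the platform annotation (24478 probesets with 1 gene, 65 with several). Tests left out probesets with a mean log2 intensity below 2.93, the 25th percentile, and kept 28789. This stands in for the present call of the methods.

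Group means within each study were estimated by limma (version 3.58.1, R 4.3.3) using trended empirical Bayes variances, and p-values were Benjamini-Hochberg adjusted across these 28789 probesets. Effects were compared between studies in 1 fit over 48 arrays. The scripts were tested on simulated data. The main fits did not pair mice across groups by replicate number.

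All measured members are named, by the probeset with the highest mean. Other probesets are given where calls differ, and in part where signs do (those under the filter from the fit without it). Up to 5 genes per comparison are named from each of 5 pigment lists. Hair follicle, Schwann cell, mast cell, interfollicular keratinocyte, dermal fibroblast, skeletal muscle, adipocyte, sebaceous gland and body position lists stood beside them, and the dermal fibroblast list had 1 of 5 genes called lower for Cpd6 in Study 4 (10.7% of all probesets called). The members and lists were chosen with earlier results of these data known. The number of arrays limits the precision, and calls also moved with the fit and the probeset. Alternatives were other filters, scalings and weights, the methods' one-way ANOVA, second probesets, a replicate block and leaving out mice. Promoter windows are RefSeq's, GRCm38.p6.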

Additional observations from a re-analysis of the deposited data

Results flagged for a closer look

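Of 72 gene and group combinations looked at, 6 had a mouse whose gap to the nearest other, over the whole range of the group, passed Dixon's 95% limit, where chance gives about 1 in 20. All 6 were high mice of Study 1. Replicate 2 of the Cpd2 group stood apart for Tyr (5.32, next 3.59), Pmel (6.75, next 5.89) and Oca2 (3.74, next 2.78). Replicate 7 of the Cpd1 group stood apart for Pmel (8.01, next 6.29). Replicate 4 of the vehicle group stood apart for Tyrp1 (10.82, next 8.00) and Mlana (10.77, next 9.42). The hair list levels of these mice were 8.61, 9.39 and 11.22.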

How the results depend on the processing

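The count of member genes called was unchanged for Cpd2 and Cpd1 against vehicle in Study 1, Cpd2 against Cpd6, Cpd18 against vehicle, Cpd6 against Cpd18 and both comparisons between studies, at 0 under every alternative run. For Cpd6 in Study 4, 5 became 1 (Mlana) in 1 fit over all 48 arrays and 0 with the methods' one-way ANOVA adjusted over all probesets. The 50th percentile filter left Tyr out there too, and kept the calls of Tyrp1, Dct, Pmel and Mlana. For Cpd6 in Study 2, 1 became 3 with array weights and 0 with the 50th percentile filter, which leaves Tyr out, with 1 fit over all arrays or with the ANOVA. For Cpd2 in Study 2, 0 became 1 with array weights. For Cpd2 against Cpd1, 1 became 0 with the ANOVA, second probesets, or without the 3 mice low in muscle genes. Leaving out 1 mouse gave 1 to 5 genes for Cpd6 in Study 4 (1 without vehicle replicate 4, 2 without vehicle replicate 1 or any Cpd6 mouse), 0 to 4 for Cpd6 and for Cpd2 in Study 2 (4 without vehicle replicate 1), and 0 to 1 for Cpd2 against Cpd1. Without vehicle replicate 1 of Study 2, 598 and 257 of all 28789 probesets were called for Cpd6 and Cpd2. The causes were not tested.

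Same-numbered mice had a correlation over 0.1 in 5 of 24 pairs in Study 1, 3 of 12 in Study 2 and 7 of 12 in Study 4. Differently numbered mice of different groups had one in 53 of 168, 9 of 36 and 10 of 36 pairs. With the replicate block the count was 5 for Cpd6 in Study 4, 1 for Cpd6 in Study 2 (Dct in place of Tyr), 0 for Cpd2 against Cpd1 and 0 for the other comparisons within studies.

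Of 827 single-gene values under an alternative, none that was called turned its sign, 37 lost and 11 gained a call, and 29 uncalled values turned sign. With 4 mice a group, leaving out 1 mouse ended 4 of the 5 calls for Cpd6 in Study 4 at least once.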
